A study of Mus musculus with 24 samples.

Results

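The genes described here are 10 that serve protein folding in the endoplasmic reticulum (ER), namely Xbp1, Hspa5, Hsp90b1, Pdia4, Pdia6, Dnajb9, Herpud1, Sdf2l1, Calr and Creld2. They were taken by gene symbol from the 15160 genes in the count table, and all 10 were present. The livers came from 24 male mice, 6 in each of 4 groups, whose age is given as 5 months. WT mice carried floxed Nfe2l2 alleles without Cre (NRF2fl/fl), and NRF2 KO mice (NRF2fl/(alb)) carried the same floxed alleles with 1 copy of Cre under the albumin promoter, which is active in hepatocytes, so other cells of the liver keep Nfe2l2. From 8 weeks of age the mice ate for 8 weeks a control diet (Con), in which methionine made up 0.86%, or a methionine-restricted diet (MR), in which it made up 0.17%, both without cysteine, and they were fasted for 4 h before death. The paper describes measurements of energy expenditure and a return to home cages between these 8 weeks and tissue harvest. The time on the diets at death may therefore have been longer. Liver RNA was sequenced as QuantSeq libraries, which read the 3′ end of each transcript, 1 library per mouse. The mice WT_CON_7604 and WT_MR_7612, which the study set aside as outliers, do not enter the values below unless stated, so WT Con and WT MR hold 5 mice each and NRF2 KO Con and NRF2 KO MR hold 6 each.

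The ER of a hepatocyte folds the secreted proteins of the blood plasma, and the unfolded protein response matches its folding capacity to that load. The sensor IRE1 splices Xbp1 mRNA so that it encodes an active transcription factor, ATF6 is released from the membrane by cleavage, and PERK phosphorylates eIF2α, which slows translation and favors that of ATF4. XBP1 and ATF6 act through ER stress response elements in promoters of chaperone genes, among them most of the genes described here. Spliced and unspliced Xbp1 mRNA share their 3′ end, so the counts used here add both forms and say nothing about splicing.

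Library totals of the 22 mice ran from 6197291 to 22068338 counts (median 15019791), and the 10 genes passed the filter on low counts with at least 77 counts in any mouse of the 24. Levels are given as counts per 1000000 (CPM) after TMM scaling. Hepatocyte markers, 10 of 10 present, summed to between 77659 and 133404 CPM. The 3′ counts of Nfe2l2 were higher in NRF2 KO mice, at 202 to 339 CPM, than in 9 WT libraries, at 94.0 to 125 CPM, and whether these reads lie in the excised part was not tested, so they do not measure the deletion. The library labelled WT_CON_7607 had 324 CPM of Nfe2l2, within the range of the NRF2 KO libraries. The called results of the 10 genes that use it are given with and without it. Results of other named genes are given only with it. Leaving it out changed no call and no sign among the 50 estimates for the 10 genes, and moved a log2 fold change by at most 0.13 (Dnajb9, MR in WT). Scaling by library size alone, without TMM, shifted the median log2 fold change of all genes from -0.01 to 0.09 for MR in WT and from -0.00 to 0.15 for MR in NRF2 KO mice, and the share of all calls that were higher went from 50.0% to 73.2% and from 49.6% to 86.1%. For NRF2 KO against WT on Con that share went from 38.8% to 27.6%, and for the interaction, with 6 and 7 genes called, from 50.0% to 28.6%. In bulk liver, fewer cells of a type and less RNA per cell cannot be told apart. The last bases of Pdia6 overlap Atp6v1c2 and those of Hsp90b1 overlap 1810014B01Rik on the opposite strand. The latter was listed at 0.493 to 2.96 CPM, and whether counting used strand is not given in the sources used here.

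Promoter matches are shown as a description of the 10 genes. The genes were grouped as ER chaperones and XBP1 targets, and XBP1 acts through ER stress response elements. Matches to such elements in 6 of the 10 are therefore not an independent result, whatever the share of all promoters. In the 300 bases around each RefSeq transcription start (GRCm38.p6), searched on both strands, the ER stress response element, ERSE, was read as CCAAT, 9 bases of any kind and CCACG. It was found in 39 of 32851 promoters (0.119%), and 5 of the 10 genes were among them, Hspa5, Hsp90b1, Pdia6, Calr and Creld2. Of 86 other genes of the pathway lists used below, 5 also had it, namely Canx, Derl3, Dnajc3, Ero1b and Syvn1. Hsp90b1 had it at 2 places. The matches lie 65 to 47 bases before the start in Hspa5 (chr2:34772025-34772043), 212 to 194 and 107 to 89 bases before it in Hsp90b1 (chr10:86705638-86705656 and chr10:86705533-86705551), 98 to 80 in Pdia6 (chr12:17266491-17266509), 162 to 144 in Calr (chr8:84847075-84847093) and 126 to 108 in Creld2 (chr15:88819520-88819538). The second match of Hsp90b1 and those of Calr and Creld2 are on the strand opposite to the gene. The fixed half-sites are in capitals, and each match is written 5′ to 3′ on its own strand.
Hspa5: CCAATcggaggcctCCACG
Hsp90b1, far match: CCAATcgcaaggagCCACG
Hsp90b1, near match: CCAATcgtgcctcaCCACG
Pdia6: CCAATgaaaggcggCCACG
Calr: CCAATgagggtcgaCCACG
Creld2: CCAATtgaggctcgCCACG

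Herpud1 had a different pair of elements. The second form, ERSE-II, read as ATTGG, 1 base of any kind and CCACG, was found in 12 of 32851 promoters (0.0365%), and Herpud1 was the only one of the 10 genes with it, 52 to 42 bases before the start (chr8:94386377-94386387). Herpud1 was also the only one with the amino acid response element bound by ATF4, read as TGATGCAAT or TGATGCAAC, which was found in 119 of 32851 promoters (0.362%). This match lay 113 to 105 bases before the start on the opposite strand (chr8:94386316-94386324). The core of the unfolded protein response element, TGACGTGG, was found in 222 promoters (0.676%), in 0 of the 10 and in 6 of the 86 pathway genes. The half-site CCACG belongs to both forms of ERSE, and its reverse complement is in that core. Xbp1, Pdia4, Dnajb9 and Sdf2l1 had no match to these 4 motifs within the 300 bases, which says only that these letters are absent from these windows. The bases after the start used for Pdia4 matched no transcript, so the place of its window is uncertain. The windows below run from 180 bases before to 20 after the start for Herpud1 (chr8:94386249-94386448, plus strand), Pdia6 (chr12:17266409-17266608, plus strand) and Dnajb9 (chr12:44210049-44210248, minus strand), the 3 of the 10 genes that were called on MR in WT mice. Matches are in capitals, and those of the opposite strand appear as their reverse complement.
Herpud1: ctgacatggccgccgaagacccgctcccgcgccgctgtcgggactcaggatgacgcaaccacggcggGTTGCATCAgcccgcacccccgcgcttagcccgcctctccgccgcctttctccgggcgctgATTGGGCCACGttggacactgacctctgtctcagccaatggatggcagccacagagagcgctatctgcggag
Pdia6: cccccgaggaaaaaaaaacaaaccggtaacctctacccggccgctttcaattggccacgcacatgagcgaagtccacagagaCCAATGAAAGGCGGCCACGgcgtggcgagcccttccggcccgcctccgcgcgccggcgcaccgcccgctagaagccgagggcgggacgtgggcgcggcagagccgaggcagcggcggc
Dnajb9: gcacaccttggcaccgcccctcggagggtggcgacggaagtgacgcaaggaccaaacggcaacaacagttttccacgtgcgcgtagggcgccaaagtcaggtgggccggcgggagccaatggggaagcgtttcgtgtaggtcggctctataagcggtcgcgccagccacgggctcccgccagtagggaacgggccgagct

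In WT mice, MR raised Herpud1 and Dnajb9 and lowered Pdia6, while Xbp1 and Hspa5 did not pass the test. Herpud1 encodes a membrane protein that organizes the complex for ER-associated degradation, by which misfolded proteins leave the ER for the proteasome. Dnajb9 encodes ERdj4, a J-domain partner of the chaperone BiP that also takes part in degradation, and Pdia6 encodes a protein disulfide isomerase. Of the 10 genes, 3 passed edgeR's quasi-likelihood test at a Benjamini-Hochberg adjusted p under 0.05 over all 13336 genes tested, beside 13.8% of all genes. The 2 that rose stand beside 6.91% of all genes called higher, and the 1 that fell beside 6.91% called lower. The median log2 fold change of the 10 was -0.11, with -0.01 over all genes tested. It was -0.29 without the mouse WT_MR_7611 and -0.01 with scaling by library size alone.

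Herpud1 was at 207, 199.8, 259, 181 and 191 CPM in the 5 WT Con mice. In the 5 WT MR mice it was at 368, 319, 297, 378 and 489 CPM. Every WT MR mouse was above every WT Con mouse, as for 9.32% of all genes whose groups did not overlap, and no other of the 10 genes had this separation in WT. The group means were 208 ± 30.5 CPM (SD, n = 5) on Con and 370.2 ± 74.6 CPM (SD, n = 5) on MR, a log2 fold change of 0.83 ± 0.15 (SE) with an adjusted p of 0.000898 in edgeR's quasi-likelihood test. It was called in each of the 22 fits that left out 1 mouse and in each of the 10 other alternative fits. Without the library labelled WT_CON_7607 the log2 fold change was 0.79.

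Dnajb9 was at 12.4, 16.0, 14.98, 21.4 and 15.1 CPM in WT Con mice. On MR it was at 34.99, 14.4, 26.2, 38.6 and 28.8 CPM. The mouse WT_MR_7611, at 14.4 CPM, lay within the Con range, and the other MR mice were above every Con mouse. The means were 16.0 ± 3.30 CPM on Con and 28.6 ± 9.33 CPM on MR (SD, n = 5 each), with a log2 fold change of 0.83 ± 0.23 (SE) and an adjusted p of 0.0200 by edgeR. The mouse WT_CON_7604, left out above, had 34.1 CPM, and over all 24 mice the log2 fold change was 0.63 with an adjusted p of 0.0793. The call was also lost without WT_MR_7609 (0.73, adjusted p = 0.0557) and without WT_MR_7615 (0.71, adjusted p = 0.0547), and it held without the library labelled WT_CON_7607 (0.95, adjusted p = 0.0142).

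Pdia6 was at 431, 348, 385, 389 and 300.0 CPM in WT Con mice. On MR it was at 218, 344, 270.2, 248 and 303 CPM. The groups overlapped through WT_CON_7608, WT_MR_7611 and WT_MR_7616. The means were 371 ± 49.1 CPM on Con and 277 ± 48.9 CPM on MR (SD, n = 5 each), and Pdia6 fell by 0.42 ± 0.12 (SE) on the log2 scale with an adjusted p of 0.0249 by edgeR. The call rested on single mice: it was lost without WT_CON_7602 (-0.37, adjusted p = 0.0591), WT_MR_7609 (-0.35, adjusted p = 0.0734) or WT_MR_7615 (-0.38, adjusted p = 0.0620), and with scaling by library size alone (-0.33, adjusted p = 0.0616). Without the library labelled WT_CON_7607 it was -0.40 with an adjusted p of 0.0492.

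**Figure D1:**
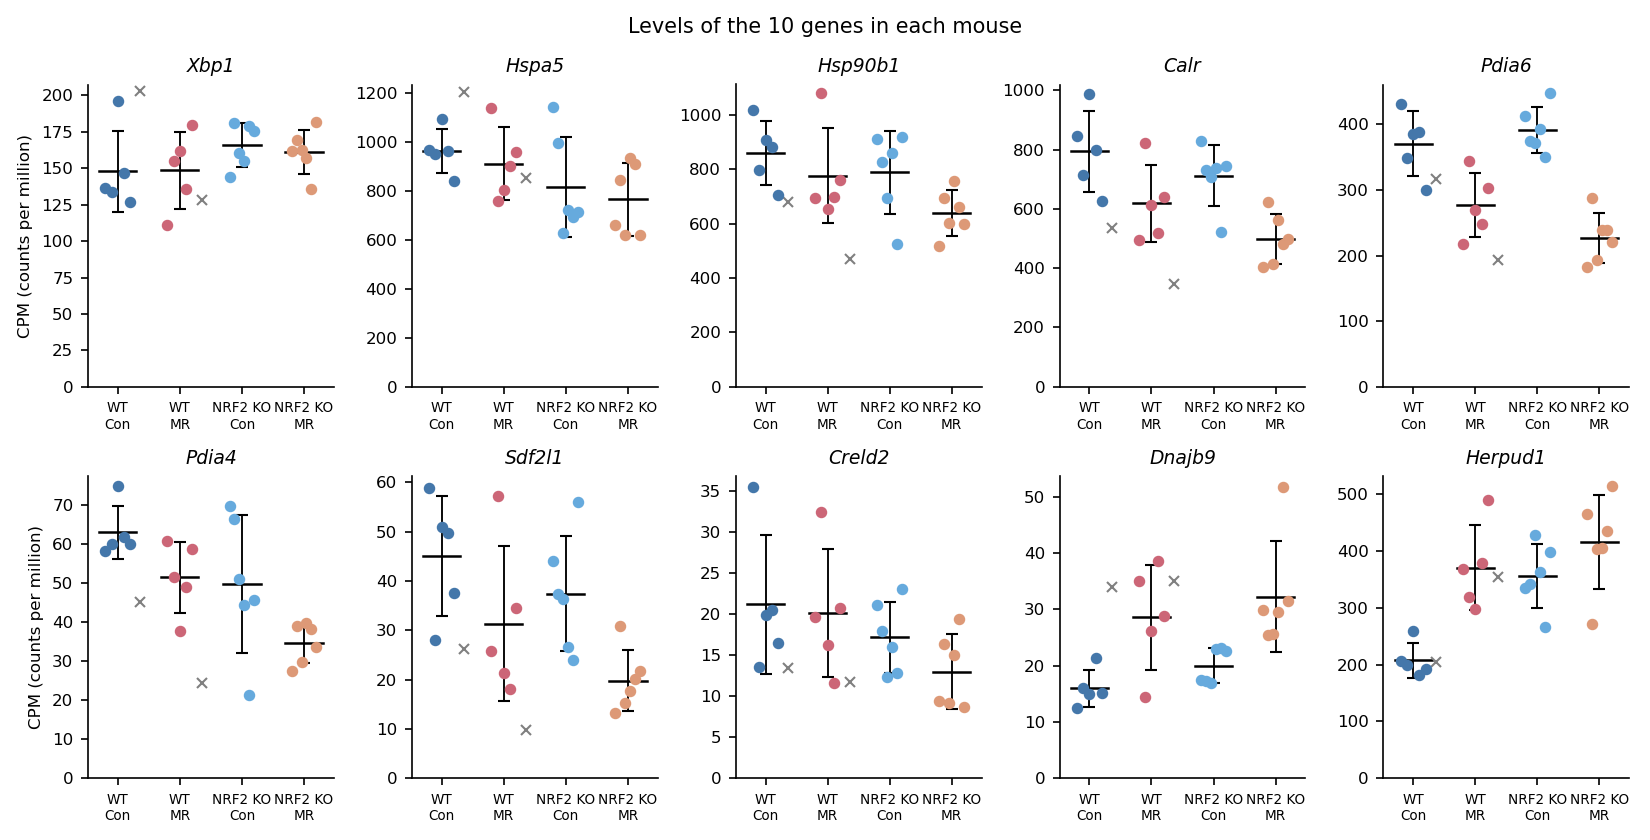
Level of each of the 10 genes in CPM (y axis, from 0) in the 4 groups (x axis), with 1 point per mouse, the mean as a horizontal line and the SD as error bars over 5, 5, 6 and 6 mice, and the 2 mice left out as grey crosses. Herpud1 separates WT Con mice, all under 260 CPM, from the other groups, and Pdia6 separates NRF2 KO Con mice (351 to 448 CPM) from NRF2 KO MR mice (182 to 288 CPM).

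The transcription factor and the main chaperone stayed near their Con values in WT mice. Xbp1 averaged 148 ± 27.9 CPM on Con and 149 ± 26.4 CPM on MR (SD, n = 5 each), and the 95% interval of the log2 fold change ran from -0.24 to 0.25. Hspa5, which encodes BiP, the Hsp70 of the ER, averaged 964 ± 90.3 CPM on Con and 913 ± 150.2 CPM on MR, with an interval from -0.40 to 0.24. These intervals leave room for changes of either sign, but not for a rise as large as the 0.83 measured for Herpud1.

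Among the other chaperones and folding factors in WT mice, none passed the test. Calr, the lectin chaperone calreticulin, averaged 794 ± 137 CPM on Con and 618 ± 130.4 CPM on MR (SD, n = 5 each), a log2 fold change of -0.36 with an adjusted p of 0.101 by edgeR. Without the mouse WT_MR_7611, whose 824 CPM was the highest on MR, Calr was called at -0.48 with an adjusted p of 0.0309. Sdf2l1, a partner of BiP and ERdj3, had a log2 fold change of -0.50, but its interval from -1.13 to 0.13 was wide, and without WT_MR_7611 it was at -0.84, also without a call. Pdia4, another disulfide isomerase, was at -0.29, and Hsp90b1, which encodes the ER Hsp90 GRP94, was at -0.15. Creld2, a secreted and ER-resident factor with EGF-like domains, was at -0.04 with an interval from -0.65 to 0.57.

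In NRF2 KO mice on MR, Dnajb9 rose and the folding factors Pdia6, Calr and Sdf2l1 fell, and Xbp1 and Hspa5 again did not pass the test. In all, 4 of the 10 genes were called, beside 12.6% of all genes. The 1 that rose stands beside 6.23% called higher, and the 3 that fell beside 6.34% called lower. The median log2 fold change of the 10 genes was -0.35 and 8 estimates were negative, but with scaling by library size alone the median was -0.18, Xbp1 (0.11) and Hspa5 (0.08) turned positive, Sdf2l1 lost its call (-0.76, adjusted p = 0.0550) and Herpud1 gained one (0.38, adjusted p = 0.0301). Pdia6 and Dnajb9 were called in both genotypes, beside 5.89% of all genes, and with TMM scaling 9 of the 10 genes, Xbp1 aside, had the same sign in both, beside 71.7% of all genes.

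Pdia6 gave the clearest separation. In NRF2 KO Con mice its lowest, median and highest levels were 351, 384 and 448 CPM, and in NRF2 KO MR mice they were 182, 229.9 and 288 CPM. No mouse of either diet overlapped the other, as for 5.45% of all genes, and Dnajb9 was the other of the 10 genes with no overlap. Pdia6 fell by 0.79 ± 0.11 (SE) on the log2 scale, from 392 ± 34.7 to 227 ± 37.6 CPM (SD, n = 6 each), with an adjusted p of 0.000105 by edgeR. It was called in each of the 22 fits without 1 mouse and in each of the 10 other alternatives.

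Calr, which binds calcium and glycoproteins in the ER, ran from 523 to 828.7 CPM with a median of 735 CPM on Con and from 405 to 623 CPM with a median of 491 CPM on MR. The groups overlapped only through the mouse KO_CON_7622 and the highest MR mice, KO_MR_7627 and KO_MR_7629. Calr fell by 0.52 ± 0.13 (SE) on the log2 scale with an adjusted p of 0.0127 by edgeR, a call that held in each of the 22 fits without 1 mouse. Over all 24 mice it was -0.51 with an adjusted p of 0.0530. Sdf2l1 ran from 24.1 to 56.1 CPM with a median of 36.9 CPM on Con and from 13.2 to 30.8 CPM with a median of 18.9 CPM on MR. It fell by 0.92 ± 0.28 (SE) on the log2 scale with an adjusted p of 0.0368 by edgeR, the largest estimate among the 10 genes. This call was the least secure: it was lost without any 1 of 8 of the 12 NRF2 KO mice, with log2 fold changes of -0.93 to -0.78 and adjusted p from 0.0596 to 0.0797, and over all 24 mice (adjusted p = 0.0831).

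Dnajb9 ran from 16.9 to 23.1 CPM with a median of 19.997 CPM in NRF2 KO Con mice. On MR it ran from 25.4 to 51.7 CPM with a median of 29.7 CPM, the highest value belonging to the mouse KO_MR_7631. All MR mice were above all Con mice, and the log2 fold change was 0.70 ± 0.20 (SE) with an adjusted p of 0.0286 by edgeR. The call was lost without KO_MR_7631 (0.51, adjusted p = 0.0741), KO_CON_7617 (0.67, adjusted p = 0.0638), KO_CON_7618 (0.66, adjusted p = 0.0622) or KO_CON_7620 (0.65, adjusted p = 0.0664), and over all 24 mice (adjusted p = 0.0664).

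The remaining genes were not called in NRF2 KO mice. Herpud1 averaged 355 ± 56.2 CPM on Con and 415 ± 82.4 CPM on MR (SD, n = 6 each), with a log2 fold change of 0.23 and an interval from -0.06 to 0.51. Pdia4 was at -0.52 with an adjusted p of 0.0790 by edgeR. In the mouse KO_CON_7622 it was at 21.2 CPM, below every MR mouse, and without that mouse Pdia4 (-0.68, adjusted p = 0.00185) and Hsp90b1 (-0.40, adjusted p = 0.0311) were called as well. With all NRF2 KO mice Hsp90b1 was at -0.31 with an adjusted p of 0.142. Creld2 was at -0.40, with an interval from -0.96 to 0.17. Hspa5 averaged 817 ± 204.4 CPM on Con and 766 ± 148 CPM on MR with an interval from -0.39 to 0.20, and Xbp1 averaged 166 ± 14.9 and 161 ± 15.3 CPM with an interval from -0.27 to 0.18.

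**Figure D2:**
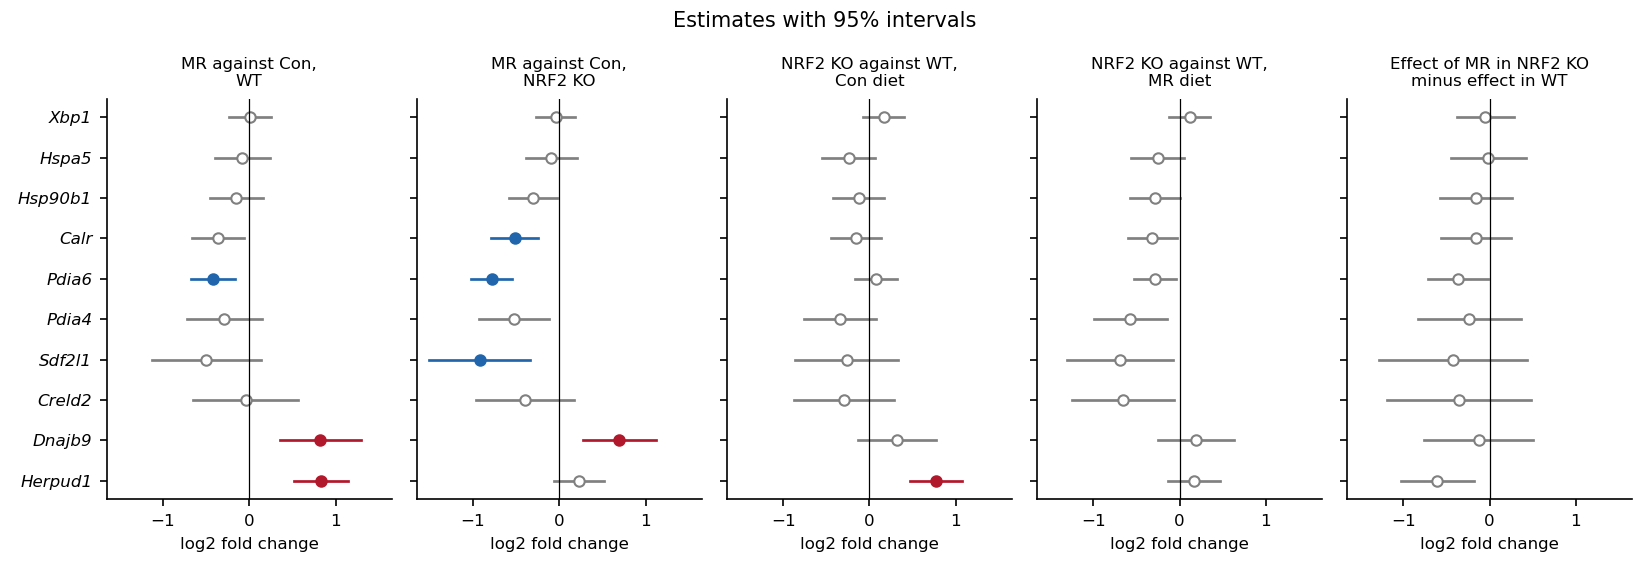
Log2 fold change (x axis) of each of the 10 genes (y axis) in the 4 comparisons and in the interaction, as points with 95% intervals, filled red for genes called higher, filled blue for genes called lower and open grey for genes not called. The rises of Herpud1 (0.83) and Dnajb9 (0.83) and the fall of Pdia6 (-0.42) stand out in WT, and 3 falls and 1 rise in NRF2 KO.

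On the Con diet, Herpud1 was the only one of the 10 genes that differed between the genotypes, and it was higher in NRF2 KO mice. This 1 call stands beside 2.07% of all genes called and 0.802% called higher. The NRF2 KO Con mice ran from 266 to 428 CPM with a median of 351 CPM, and the WT Con mice from 181 to 259 CPM. The groups did not overlap, as for 1.83% of all genes. The log2 fold change was 0.77 ± 0.15 (SE) with an adjusted p of 0.00494 by edgeR, and 0.73 with an adjusted p of 0.0124 without the library labelled WT_CON_7607. This comparison and that of MR in WT use the same 5 WT Con mice, so they are not independent: Herpud1 was low in these mice and higher in the other 3 groups.

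Circadian clock genes moved with genotype on this diet. Of 15 clock genes, 10 were called between NRF2 KO and WT on Con, 7 higher and 3 lower, against 8 for MR in WT and 2 for MR in NRF2 KO. The shares of all genes called in these comparisons were 2.07%, 13.8% and 12.6%. A clock score was taken as the mean of the standardized log2 CPM of the 15 clock genes, with Arntl, Clock, Npas2, Cry1 and Nfil3 counted as positive and the other 10 as negative. It ran from 0.41 to 1.95 in WT Con mice and from -0.64 to -0.14 in NRF2 KO Con mice, without overlap, and from -0.40 to 0.69 in WT MR mice. Genotype and clock phase on the Con diet cannot be told apart. With the score as a covariate, Herpud1 on Con was at 0.61 with an adjusted p of 0.302 by edgeR. With the same covariate, Herpud1 remained the only one of the 10 genes called for MR in WT, with Dnajb9 at 0.78 (adjusted p = 0.136) and Pdia6 at -0.24 (adjusted p = 0.380), and all 4 calls for MR in NRF2 KO were kept.

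**Figure D3:**
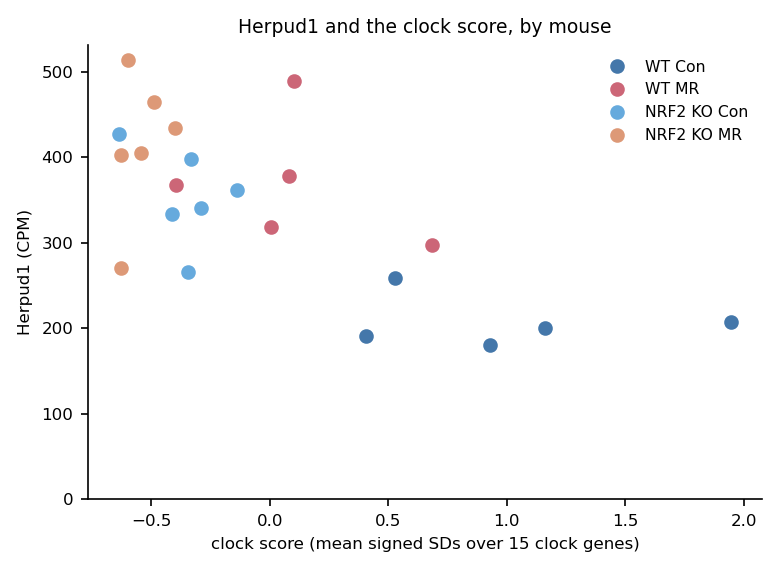
Herpud1 in CPM (y axis, from 0) against the clock score (x axis, the mean of signed SDs over 15 clock genes), 1 point per mouse, for the 22 mice in 4 groups. The 5 WT Con mice lie at scores of 0.41 to 1.95 and under 260 CPM, and the 12 NRF2 KO mice lie at scores below -0.13.

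The other 9 genes were not called between the genotypes on Con. Pdia4 (-0.34), Creld2 (-0.30), Sdf2l1 (-0.26), Hspa5 (-0.24), Calr (-0.16) and Hsp90b1 (-0.13) were lower in NRF2 KO mice by estimates with intervals that included 0. Dnajb9 (0.32), Xbp1 (0.17) and Pdia6 (0.08) were higher by such estimates. The median of the 10 was -0.14.

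On the MR diet, edgeR called 0 of the 10 genes between NRF2 KO and WT mice, beside 1.93% of all genes, and DESeq2 and limma on the deposited normalized values also called 0. The 10 genes included 5 with an unadjusted p under 0.05, all lower in NRF2 KO mice, beside 13.9% of all genes and 7.33% lower. These were Pdia4, Sdf2l1, Creld2, Calr and Pdia6. Their log2 fold changes were -0.57, -0.69, -0.65, -0.31 and -0.28, and their adjusted p by edgeR lay between 0.167 and 0.309. Pdia4 was at 37.6 to 60.6 CPM in WT MR mice and at 27.5 to 39.8 CPM in NRF2 KO MR mice. The groups overlapped for all 10 genes, where 4.6% of all genes did not overlap. Pdia4 was called when only the groups compared were fitted (-0.57, adjusted p = 0.0217) and without the mouse KO_CON_7622 (-0.57, adjusted p = 0.0217).

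The effect of MR was not shown to differ between genotypes for any of the 10 genes. The interaction of genotype and diet was called for 0 of them by edgeR, DESeq2 and limma, beside 0.045% of all genes by edgeR. At an unadjusted p under 0.05 there were 2, beside 7.56% of all genes. Herpud1 rose by 0.61 less in NRF2 KO mice on the log2 scale (interval -1.03 to -0.18, adjusted p = 0.440 by edgeR), and its NRF2 KO Con mice already lay at the level of WT MR mice. Pdia6 had a difference of -0.36 (interval -0.71 to -0.02, adjusted p = 0.633 by edgeR). All 10 estimates were negative with TMM scaling (median -0.20), Xbp1 and Hspa5 turned positive with scaling by library size alone, and all 10 estimates come from the same mice. Without the library labelled WT_CON_7607 the differences were -0.56 for Herpud1 and -0.39 for Pdia6, also without a call. In the 2 mice left out, levels of several genes differed from their groups, and over all 24 mice Xbp1, Hspa5 and Dnajb9 had interaction estimates above 0.

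The genes did not vary among mice as 1 block. After the group means were removed, log2 CPM of Hsp90b1, Pdia6, Calr, Sdf2l1 and Creld2, a grouping made after the values were seen, gave Pearson r of 0.64 to 0.87 over their 10 pairs in the 22 mice. Hspa5 with these 5 gave r of 0.16 to 0.43, Pdia4 0.28 to 0.62 and Xbp1 -0.06 to 0.39. Herpud1 gave r of -0.16 to 0.06 with them, and Dnajb9 gave r of -0.49 to -0.25, so that mice with more folding factors for their group tended to have less Dnajb9. The points share libraries and scaling, and the values are a description.

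Some mice lay at the end of their group for most of these genes. WT_MR_7611 had the highest level of all 5 of these genes among WT MR mice, with Hsp90b1 at 1081 CPM against 652 to 759 CPM in the other 4, and its Dnajb9 was the lowest of its group. KO_CON_7622 had the lowest level of 4 of the 5 among NRF2 KO Con mice, and KO_MR_7625 of 4 of the 5 among NRF2 KO MR mice. WT_CON_7602 had the highest level of 4 of the 5 among WT Con mice, and KO_CON_7623 of 4 of the 5 among NRF2 KO Con mice. Without WT_CON_7602 the call of Pdia6 in WT was lost (adjusted p = 0.0591 by edgeR). Without KO_CON_7623 that of Sdf2l1 in NRF2 KO mice was lost (adjusted p = 0.0718 by edgeR). The mice that were left out stood low for the same genes: WT_MR_7612 had Calr at 346 CPM and Sdf2l1 at 9.86 CPM, below every WT MR mouse kept, and WT_CON_7604 had Calr at 535 CPM, below every WT Con mouse kept.

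**Figure D4:**
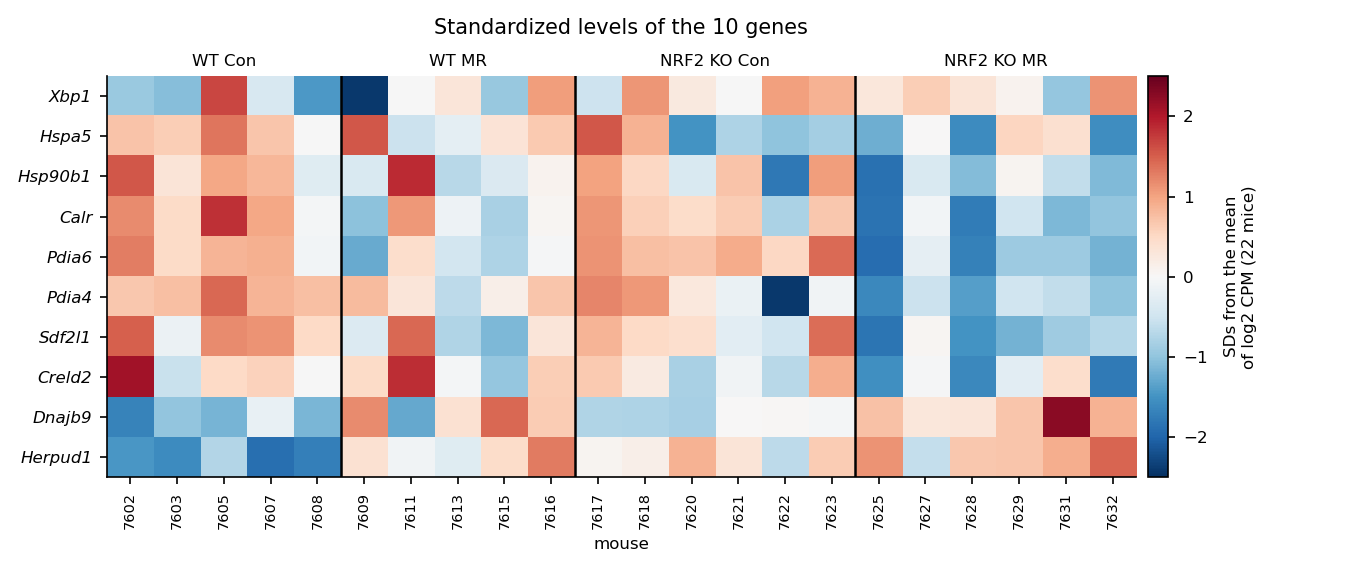
Log2 CPM of the 10 genes (rows) in the 22 mice (columns, by group and mouse number), as SDs from the mean of each gene over the 22 mice, red above and blue below. The mouse WT_MR_7611 stands out among WT MR mice with high Hsp90b1 (1081 CPM) and low Dnajb9 (14.4 CPM), and NRF2 KO MR mice are low for most folding factors.

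The genes whose levels followed the mean of the 10 most closely were mostly other folding factors. Over the 22 mice, Dnajb9 and Herpud1 had Pearson r of -0.76 and -0.51 with Calr, so this mean does not describe each of the 10. With the mean standardized log2 CPM of the 10 genes over the 22 mice, and among genes of at least 5 CPM, the highest Pearson r were those of Dnajb11 (0.87), Cdk5rap3 (0.79), Ppib (0.79), Ddost (0.79), Pdia3 (0.79), Canx (0.76), Hyou1 (0.75), Dnajc3 (0.74), Tmem258 (0.74) and Slc35b1 (0.73). Of these 10, 7 are in the pathway lists used below, among them Dnajb11, which encodes the BiP partner ERdj3, and Canx, the lectin chaperone calnexin. Dnajb11 was also the only listed gene outside the 10 with a match to ERSE-II. Slc35b1, a nucleotide transporter of the ER membrane, was lower on MR in WT (log2 fold change -0.36, adjusted p = 0.0277) and NRF2 KO mice (-0.40, adjusted p = 0.00933) by edgeR.

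The rest of the pathway was read from 5 lists with 104 genes tested. Outside the list of the PERK and ATF4 arm, MR in WT mice raised 6 of 89 genes and lowered 0, beside 6.91% of all genes in each direction. MR in NRF2 KO mice raised 7 and lowered 8, beside 6.23% and 6.34% of all genes. The median log2 fold changes over these 89 genes were 0.02 and -0.00, beside -0.01 and -0.00 over all genes. In the ATF4 arm 7 of 15 genes rose and 0 fell in each genotype, with medians of 0.61 and 0.34. The interaction of genotype and diet was called by edgeR for 0 of the 104 genes, beside 0.045% of all genes. A call in 1 genotype alone therefore does not show that the effect of MR differed between genotypes. On Con, edgeR called 3 of the 104 genes lower in the knockout (Trib3, Creld1 and Selenos) and 0 higher, beside 2.07% of all genes called. On MR it called 2 lower (Creld1 and Stt3b) and 0 higher, beside 1.93%. With the clock score as covariate, 0 of the 13336 genes were called on Con. The 3 calls on Con thus cannot be told apart from clock phase.

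In the ATF4 arm, genes of amino acid supply changed far more than any of the 10. Asns, asparagine synthetase, rose from 4.79 ± 1.08 to 82.3 ± 7.40 CPM in WT (SD, n = 5 each; log2 fold change 4.09 ± 0.24, SE) and from 4.22 ± 1.503 to 60.5 ± 12.7 CPM in NRF2 KO mice (SD, n = 6 each; 3.86 ± 0.22, SE). Psat1, a serine synthesis enzyme, rose by 3.61 and 3.29 on the log2 scale, and Phgdh of the same pathway went from 0.213 to 3.69 CPM and from 0.121 to 3.58 CPM. Fgf21, the hormone of the liver response to protein and amino acid restriction, rose by 2.43 and 2.11, and Chac1, a glutathione-degrading enzyme, by 1.29 and 2.16. Trib3, a pseudokinase that restrains ATF4, rose by 0.85 and 1.23, and it was lower in NRF2 KO than in WT mice on Con (-0.86, adjusted p = 0.00993 by edgeR). The amino acid response element matched in Herpud1 was also found in 3 of the 86 pathway genes, namely Fgf21, Chac1 and Nupr1. Asns, Psat1, Phgdh and Trib3 were not among these matches. Nupr1, a stress-induced chromatin protein named after its values were seen, was not called (-0.39 in WT and -0.05 in NRF2 KO mice). Whether ATF4 acts on Herpud1 in these livers was not tested.

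None of 10 sensors and regulators of the unfolded protein response was called in WT, beside 13.8% of all genes. In NRF2 KO mice 1 rose and 1 fell, beside 6.23% of all genes called higher and 6.34% called lower. Eif2ak3, which encodes PERK, rose from 5.90 ± 1.604 to 11.2 ± 3.41 CPM (SD, n = 6 each). Its log2 fold change was 0.94 (adjusted p = 0.00270 by edgeR), against 0.03 in WT mice without a call. The interaction for Eif2ak3 was not called (0.91, adjusted p = 0.412 by edgeR). Creb3l3, a membrane-bound transcription factor of hepatocytes, fell by 0.33 in NRF2 KO mice and was at -0.21 in WT, without a call. Ern1, which encodes IRE1, was at 0.26 in WT and -0.14 in NRF2 KO mice, and Atf6 was at 0.18 and 0.27, without a call. Eif2ak3, Ern1 and Atf6 are named after their values were seen.

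Of 28 other ER chaperones and folding enzymes, 3 rose and 0 fell in WT, beside 6.91% of all genes in each direction. In NRF2 KO mice 2 rose and 3 fell, beside 6.23% of all genes called higher and 6.34% called lower. The falls in NRF2 KO mice were those of Pdia3 (-0.58, adjusted p = 0.00832), the disulfide isomerase that works with calreticulin and calnexin, of Ppib (-0.46, adjusted p = 0.00489), a prolyl isomerase, and of P4hb (-0.25, adjusted p = 0.0498), the main disulfide isomerase, all by edgeR. Ero1l, the oxidase that recharges disulfide isomerases, rose in both genotypes by 0.35 and 0.58. Creld1, a relative of Creld2, rose by 0.48 in WT and was lower in NRF2 KO than in WT mice on Con (-0.54) and on MR (-0.84). Members of this list besides Pdia3, Ppib and Creld1 are named after their values were seen.

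Of 21 other genes of ER-associated degradation, 2 rose and 0 fell in WT, beside 6.91% of all genes in each direction. In NRF2 KO mice 3 rose and 1 fell, beside 6.23% of all genes called higher and 6.34% called lower. Selenos, an adaptor of the retrotranslocation complex, was at 156 ± 17.6 CPM in NRF2 KO Con and 241 ± 40.8 CPM in NRF2 KO MR mice (SD, n = 6 each; log2 fold change 0.62, adjusted p = 0.000305 by edgeR). It was lower in NRF2 KO than in WT mice on Con (-0.40, adjusted p = 0.0469). Syvn1, named after its values were seen, encodes the ubiquitin ligase HRD1 that HERPUD1 serves and rose by 0.55 in NRF2 KO mice with an adjusted p of 0.0470. Stt3b, an oligosaccharyltransferase subunit, rose by 0.38 in WT and was lower in NRF2 KO than in WT mice on MR (-0.32). Derl3 fell by 2.22 in NRF2 KO mice, from 3.87 ± 2.56 to 0.888 ± 0.659 CPM (SD, n = 6 each). Its levels were low and its groups overlapped, at 1.36 to 7.75 CPM on Con and 0.336 to 2.08 CPM on MR. Derl3 is also a marker of plasma cells, of which no other listed marker was called. The only pancreatic acinar marker tested was called lower in the same comparison (-1.43). Which cells the Derl3 counts came from was not tested. Of 30 genes of translocation and early secretion, 1 rose in WT, and 1 rose and 3 fell in NRF2 KO mice, among them Tmed2 (-0.31), a cargo receptor of transport vesicles. The same shares of all genes stand beside these counts.

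**Figure D5:**
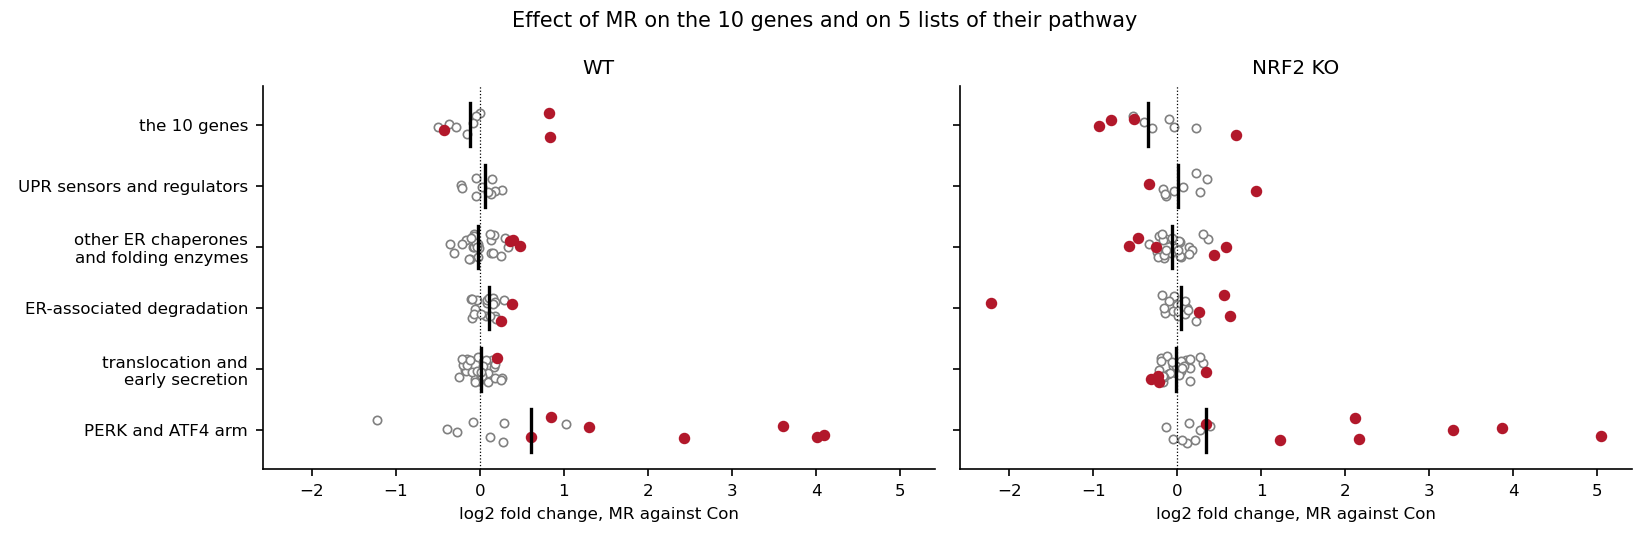
Log2 fold change on MR (x axis) in WT (left) and NRF2 KO mice (right) for the 10 genes and for the tested genes of 5 pathway lists (rows), with called genes filled red, the others open, and the median of each row as a black line. The lists other than the PERK and ATF4 arm center near 0, and that arm reaches a log2 fold change of 4.09 in WT.

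Markers of other liver cells moved with the diet beside these results. The shares of all genes called lower on MR were 6.91% in WT and 6.34% in NRF2 KO mice. Of 8 Kupffer cell markers 4 were lower on MR in WT and 2 in NRF2 KO mice, with summed levels of 379 to 513 CPM in WT Con, 305 to 342 CPM in WT MR, 332 to 501 CPM in NRF2 KO Con and 282 to 382 CPM in NRF2 KO MR mice. Cholangiocyte markers, 5 tested, summed to 49.1 to 74.7 CPM in WT Con and 21.2 to 28.4 CPM in WT MR mice, with 4 called lower, and to 31.9 to 53.4 and 20.8 to 29.2 CPM in NRF2 KO mice, with 1 called lower. Of 8 endothelial and stellate markers 3 and 2 were lower. Plasma and B cell markers summed to between 16.0 and 50.1 CPM with overlap among all groups. Of 5 red blood cell markers 1 was lower on MR in each genotype. Only 1 pancreatic acinar marker was tested, and it was called lower on MR in NRF2 KO mice (log2 fold change -1.43) and not in WT. The 7 acinar markers present summed to 32.6 to 87.6 CPM (median 63.2) in NRF2 KO Con and 18.2 to 79.8 CPM (median 21.3) in NRF2 KO MR mice. In WT they summed to 21.9 to 64.7 CPM (median 28.4) on Con and 18.8 to 25.9 CPM (median 20.5) on MR. No listed marker found in the files was at 0 in every mouse. The part of these cells in the levels of the 10 genes was not tested.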

How the data were processed

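Liver RNA of 24 mice was measured, 1 QuantSeq library per mouse. The deposited raw counts per gene were made by the authors with the Lexogen QuantSeq pipeline FWD 2.3.6. The submitters' processing notes name GRCm38 (mm10), R 3.4.3 and DESeq2 1.18.1, and the aligner is not given in the sources used here. The second deposited table holds a normalized signal, in which the authors scaled those counts by 1 DESeq2 size factor per mouse; a recalculation differed by at most 5.2e-15 in relative terms.

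Counts were analyzed in R 4.3.3 with edgeR 4.0.16 (TMM, filter by expression, robust quasi-likelihood F-test) in 1 fit of 4 group means over 22 mice, with Benjamini-Hochberg adjustment over 13336 genes (1824 were filtered out) and calls at an adjusted p under 0.05. The SE of an edgeR estimate was calculated as the absolute log2 fold change divided by the square root of the F statistic. Two-sided 95% intervals were made from this SE and a t quantile. Each mouse is a separate animal, and the labels give no batch. CPM for correlations used a prior count of 2. The script was tested on simulated data. Alternatives were DESeq2 1.42.0, limma 3.58.1 on log2 of the normalized signal plus 1, other scalings and filters, a clock score as covariate, only the groups compared, all 24 mice with and without quality weights, and each mouse left out.

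The 10 genes and all lists were chosen with earlier results of these data known. Beyond the 10, genes were named as the 5 called genes with the largest rise and the 5 with the largest fall over the 5 pathway lists per comparison (at least 1 CPM on average), or as the 10 most alike; other genes are marked. Promoters are from RefSeq on GRCm38.p6, matched by symbol for 10 of 10 genes, and for 9 of them, all but Pdia4, the bases after the start matched a transcript. Plots used matplotlib 3.10.9 under Python 3.11.15.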

Additional observations from a re-analysis of the deposited data

Results flagged for a closer look

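Levels were checked for a mouse far from the others of its group in 40 groups, 10 genes in each of 4 groups, and 4 values from 3 mice stood apart by the gap to their nearest neighbour relative to the range of the group. Chance gives about 1 in 20 groups. The mouse WT_CON_7605 had Xbp1 at 196 CPM, against 127 to 147 CPM in the other 4 WT Con mice. The same mouse had Pdia4 at 74.7 CPM, against 58.3 to 61.8 CPM. Hsp90b1, the ER Hsp90, was at 1081 CPM in WT_MR_7611, against 652 to 759 CPM in the other WT MR mice. Dnajb9 was at 51.7 CPM in KO_MR_7631, against 25.4 to 31.4 CPM in the other 5 NRF2 KO MR mice, and without it the log2 fold change of Dnajb9 on MR in NRF2 KO mice was 0.51 instead of 0.70.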

How the results depend on the processing

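Over 1590 alternative fits of single genes (50 results under up to 32 settings), 1550 kept the direction given above and 40 reversed, none of them among the 8 called results. The calls for Herpud1 in WT and Pdia6 in NRF2 KO mice held in every alternative run. Depth gives the fewest counts to Creld2, with at least 77 in any mouse. The groups share no mouse numbers. The paper describes the WT mice as littermates of the NRF2 KO mice, but the labels give no litter. No paired or litter-matched analysis was therefore possible.

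Of the 10 genes, 3 were called for MR in WT, and 1 when only the groups compared were fitted or with the clock score as covariate, and 1 to 4 when single mice were left out (1 without WT_MR_7609 or WT_MR_7615, 4 without WT_MR_7611). For MR in NRF2 KO mice, 4 were called, 1 over all 24 mice, and 2 to 6 when single mice were left out (2 without KO_CON_7617, KO_CON_7618, KO_CON_7620 or KO_MR_7631, 6 without KO_CON_7622). DESeq2 and quality weights over 24 mice added Pdia4 in NRF2 KO mice (-0.52, adjusted p = 0.0467, and -0.62, adjusted p = 0.0211). Quality weights dropped Dnajb9 in WT (0.67, adjusted p = 0.0829), and fitting only the groups compared dropped Dnajb9 (0.82, adjusted p = 0.0576) and Pdia6 (-0.43, adjusted p = 0.0505). On Con 1 gene differed between genotypes and 0 with the clock score, where the median over the 10 went from -0.14 to 0.11. On MR 0 differed, 1 when only the groups compared were fitted, and 0 to 1 when single mice were left out. The cause of these changes was not tested.

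None of the reversed estimates was called. For MR in WT these were Xbp1 over 24 mice (-0.12), with at least 10 counts in every mouse (-0.0092) and with quality weights (-0.0043), Hspa5 (0.028) and Creld2 (0.046) with library size scaling, and Creld2 with quality weights (0.014) and the clock score (0.39). For MR in NRF2 KO mice these were Xbp1 (0.11) and Hspa5 (0.076) with library size scaling, and on Con, with the clock score, Hsp90b1 (0.057) and Creld2 (0.31). For the interaction these were Xbp1 (0.079), Hspa5 (0.067) and Dnajb9 (0.065) over 24 mice, Xbp1 (0.0036) and Hspa5 (0.047) with library size scaling, Hspa5 with limma (0.0098) and the clock score (0.034), and Dnajb9 with quality weights (0.040). With single mice left out, MR in WT ranged from -0.069 to 0.13 for Xbp1 and from -0.29 to 0.21 for Creld2, MR in NRF2 KO mice from -0.077 to 0.0037 for Xbp1 and from -0.16 to 0.034 for Hspa5, and the interaction from -0.16 to 0.027 for Xbp1 and from -0.080 to 0.12 for Hspa5.

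Over all genes, calls for MR in NRF2 KO mice numbered 1677, and 2785 with library size scaling and 2693 with quality weights. Between genotypes on Con they numbered 276, against 449 with DESeq2, 99 with only the groups compared and 0 with the clock score. On MR they numbered 258, against 484 with DESeq2, 604 with quality weights, 600 with only the groups compared and 165 with the clock score. The interaction had 6 calls, 33 with DESeq2 and 4 over 24 mice. With single mice left out it had between 3 (without WT_MR_7611, WT_MR_7616, KO_CON_7617, KO_CON_7618 or KO_MR_7625) and 12 (without the library labelled WT_CON_7607), and calls on Con fell to 181 without WT_CON_7603. The median of the 10 genes then ranged from -0.29 to -0.06 for MR in WT, -0.43 to -0.28 for MR in NRF2 KO mice, -0.21 to -0.05 on Con, -0.34 to -0.19 on MR and -0.32 to -0.10 for the interaction.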
